A study of Homo sapiens with 6 samples.

Results

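The expression of 10 genes of pericellular proteolysis was followed in paclitaxel-resistant MDA-MB-231 cells, a human triple-negative breast cancer line, sorted by the ALDEFLUOR assay on aldehyde dehydrogenase (ALDH) activity. They were chosen by name as the matrix metalloproteinases MMP1, MMP2, MMP3 and MMP14, their tissue inhibitors TIMP1, TIMP2 and TIMP3, urokinase (PLAU) with its receptor (PLAUR), and the sheddase ADAM17. The choice was made with earlier results of these data known. These 10 genes were among 61015 annotated genes on file, and each was measured as the sum of its transcripts, 86 in all for the members. Breast cancer stem cells (BCSC, ALDH+, n = 3 libraries) were compared with non-BCSC (ALDH−, n = 3 libraries). Both groups came from the same drug-resistant line, so both carry the resistance, and no sensitive parental cells entered the comparison. The labels give the same cell type for all 6 libraries, name the groups only in the titles, and do not say whether the replicates are separate cultures, so p-values measure the spread between these libraries, which may be technical.

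Secreted MMPs are made as inactive zymogens that cut collagens and other matrix proteins once activated. MMP14 is a membrane-anchored MMP that activates pro-MMP2 on the cell surface with TIMP2 as the adaptor, and TIMPs at higher amounts block the active enzymes. Urokinase bound to its receptor converts plasminogen to plasmin, which in turn can activate MMP zymogens, and ADAM17 releases membrane proteins such as TNF and EGFR ligands from the cell surface. MDA-MB-231 is widely used as an invasive line that makes MMP1, MMP14, urokinase and the urokinase receptor.

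The BCSC libraries held 15925943 to 21215352 counts and the non-BCSC libraries 9898588 to 12263667. VIM, CD44, CAV1 and SPARC, which were taken as markers present in the line, were abundant in every library. The keratin KRT18 was low, against what is known of the line. It was at 1.85 ± 0.802 CPM (counts scaled to a common TMM-normalized library total) in BCSC and 11.0 ± 1.28 in non-BCSC. The 6 markers taken as low or absent in the line were ESR1, PGR, ERBB2, CDH1, EPCAM and GATA3. They summed to 81.0 to 93.2 CPM in BCSC and 103 to 141 CPM in non-BCSC. Of the 5 tested, PGR was called lower in BCSC and none higher. The summed level of 5 leukocyte and blood markers ran from 2.56 to 3.65 CPM in BCSC and from 14.9 to 25.0 CPM in non-BCSC, with LYZ at 0 in all but non-BCSC replicate 2. Of the 3 tested, PTPRC and the red-cell globin HBB, kept in the same list, were called lower in BCSC, whereas CD68 was called higher, with 48, 50 and 26 counts against 0, 1 and 0. The 6 fibroblast markers summed to 56.4 to 65.6 CPM in BCSC and 83.0 to 129 CPM in non-BCSC, of which PDGFRA made up the larger share, and the 3 endothelial markers on file to 34.1 to 50.9 CPM and 60.0 to 97.0 CPM. The 391 olfactory receptor genes, which serve odour sensing in the nose, held 1.03 to 3.19 counts per kb across BCSC, against 8.33 to 15.3 for non-BCSC. Across all genes tested, the fold change also rose with the GC content of the gene (Spearman's rho 0.54, taken across genes, a description only since genes are not replicates). The part of these differences in the results was tested only as far as 2 alternatives go, whose values stand beside the tested members. The first was a correction for GC content and length. The second removed the olfactory level as background, scaled by each gene's mean transcript length, not weighted by counts.

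Of the 9 members tested, 4 were called higher in BCSC: PLAU, MMP14, TIMP1 and MMP2. None was called lower (edgeR quasi-likelihood test, called where the Benjamini-Hochberg adjusted p was under 0.05 and the log2 difference was above 1). Over all 20442 genes tested, 8.85% were called higher and 11.3% lower, and of the 12576 whose mean count was 50 or more, 13.7% were called higher and 6.45% lower. With the adjusted p alone, 5 members passed, all higher, where 15.3% of all genes were higher and 14.6% lower. Of the genes whose mean count was 50 or more, 24.2% were higher by that measure. The median log2 fold change was 0.76 over the 9 members and -0.05 over all genes tested. The groups did not overlap for 6 members, which was also so for 52.1% of all genes and 53.3% of the better-counted ones. Because the members were chosen with earlier results of these data known, these shares cannot show an excess over all genes. In bulk libraries, fewer cells that express a gene and less RNA per cell cannot be told apart.

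**Figure D1:**
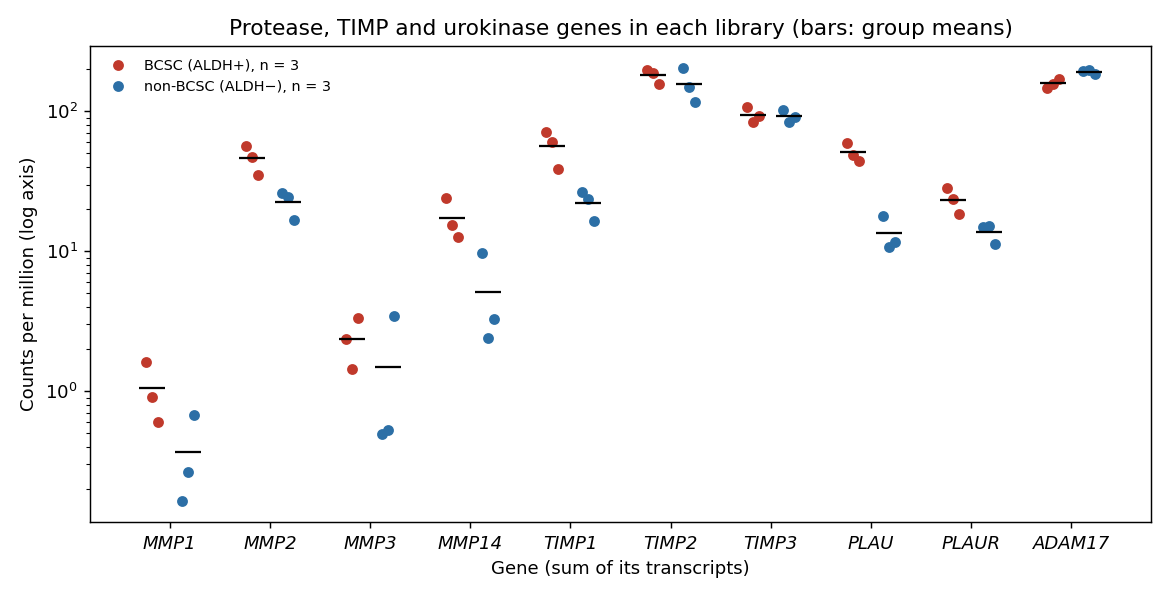
Level of each of the 10 genes in every library, in CPM on a log axis, with BCSC in red, non-BCSC in blue and a bar at each group mean (n = 3 libraries per group). PLAU, TIMP1, MMP2, MMP14 and PLAUR lie higher in all 3 BCSC libraries than in any non-BCSC library, ADAM17 lies lower, and TIMP2 and TIMP3 overlap.

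PLAU had the smallest adjusted p of the members. Urokinase is the secreted serine protease at the head of the plasminogen cascade, and its gene (GRCh37 chr10:75668935-75677254, plus strand) was 3.80-fold higher in BCSC. Its level was 59.4, 49.1 and 44.4 CPM in the BCSC libraries and 17.8, 10.8 and 11.6 CPM in the non-BCSC libraries. The lowest BCSC library thus lay well above the highest non-BCSC library. The means were 51.0 ± 7.65 CPM and 13.4 ± 3.85 CPM (SD, n = 3), with a log2 fold change of 1.92 (SE 0.24, adjusted p = 0.000993). It stayed called without any single library, with log2 fold changes of 1.80 to 2.24. It was the only member still called after correction for GC content and length, at 1.29 (SE 0.20, adjusted p = 0.00108), and it was 1.83 with the background removed.

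PLAUR encodes the GPI-anchored receptor that holds urokinase at the cell surface (GRCh37 chr19:44150247-44174699, minus strand). Its level was 28.2, 23.5 and 18.5 CPM across BCSC, against 14.9, 15.1 and 11.3 CPM for non-BCSC. All 3 BCSC libraries were above the non-BCSC libraries, by less than for PLAU. The log2 fold change of 0.76 (SE 0.26) had an adjusted p of 0.0497 and was short of the minimum fold, so PLAUR was not called. It was 0.038 after the GC and length correction (adjusted p = 0.911) and 0.61 with the background removed (adjusted p = 0.121). PLAU counts stood at 2.10, 2.09 and 2.40 times the PLAUR counts across BCSC, against 1.19, 0.713 and 1.03 times for non-BCSC. The 2 groups of ratios did not overlap, and the difference of 1.20 on the log2 scale had the smallest p that 3 against 3 libraries can give (exact permutation test, two-sided, p = 0.1, 20 permutations, 1 of 3 ratios tested, not adjusted).

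MMP14, the membrane-anchored activator of MMP2 (GRCh37 chr14:23305769-23318250, plus strand), was covered by 488, 238 and 209 counts across the BCSC libraries, against 117, 27 and 34 for non-BCSC. These were 24.0, 15.5 and 12.6 CPM against 9.66, 2.39 and 3.26 CPM. The first replicate was the highest of both groups, and the groups did not overlap. The log2 fold change was 1.76 (SE 0.52, adjusted p = 0.0315), a 3.40-fold difference on means of 17.4 ± 5.93 and 5.10 ± 3.97 CPM. The call was lost without BCSC replicate 1 or 2 or non-BCSC replicate 2 or 3, with adjusted p-values of 0.0694 to 0.119 and log2 fold changes of 1.46 to 1.86, and without non-BCSC replicate 1 the value was 2.68 (adjusted p = 0.00669). After the GC and length correction the log2 fold change was 0.30 (adjusted p = 0.587), and with the background removed it was 2.21 (adjusted p = 0.105). In non-BCSC the level of MMP14 per kb was only 1.45 times the olfactory level, so its low values there were close to that background.

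MMP2, the type IV collagenase that MMP14 activates (GRCh37 chr16:55423612-55540603, plus strand), was at 56.2, 46.8 and 35.1 CPM across BCSC, against 26.2, 24.5 and 16.8 CPM for non-BCSC. Every BCSC library was above every non-BCSC library. With means of 46.1 ± 10.6 and 22.5 ± 5.03 CPM, its log2 fold change of 1.03 (SE 0.24, adjusted p = 0.0131) was just beyond the minimum of 1. It fell short of that minimum with the background removed (0.90), in DESeq2 (0.94), with RLE size factors (0.94), with at least 10 counts in each library (0.89), after thinning to the smallest library (0.98) and with protein-coding transcripts only (0.88), was not called without BCSC replicate 1 or non-BCSC replicate 3 (lowest value 0.86 over the 6 fits), and had the opposite sign after the GC and length correction (-0.14, adjusted p = 0.566).

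The secreted proteases MMP1 and MMP3 lie close together on chromosome 11 (GRCh37 chr11:102660132-102668891 and chr11:102706532-102714340, both minus strand) and were barely measured, although the line is known for MMP1. MMP1, an interstitial collagenase, was counted 33, 14 and 10 times across BCSC, against 2, 3 and 7 for non-BCSC, and it did not pass the expression filter. In CPM these were 1.63, 0.913 and 0.605 against 0.165, 0.265 and 0.671, so the highest non-BCSC library lay within the BCSC range. Without the filter its log2 fold change was 1.58 (SE 1.75, adjusted p = 0.531). MMP3, or stromelysin 1, was counted 48, 22 and 55 times across BCSC, against 6, 6 and 36 for non-BCSC, and the third non-BCSC library was its highest of all at 3.45 CPM. Its log2 fold change was 0.67 (SE 0.96, adjusted p = 0.622), and without that library it was 2.22 (adjusted p = 0.128), against 0.31 to 0.98 without any other. It was 1.21 after the GC and length correction (adjusted p = 0.342) and 1.40 with the background removed (adjusted p = 0.563). In non-BCSC both were below the olfactory level per kb, at 0.186 times for MMP1 and 0.792 times for MMP3. Both genes overlap the pseudogene WTAPP1 on the opposite strand, which had 28 counts in all 6 libraries together, 40.6% of the number for MMP1. Neither gene passed the test.

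TIMP1 was the inhibitor that differed. It is a secreted inhibitor of most soluble MMPs and binds MMP14 weakly, and its gene lies on the X chromosome (GRCh37 chrX:47441807-47446188, plus strand). Its level was 70.9, 60.1 and 38.8 CPM across BCSC, against 26.6, 23.8 and 16.6 CPM for non-BCSC. No BCSC library overlapped the non-BCSC range, and the means were 56.6 ± 16.3 and 22.3 ± 5.15 CPM. The log2 fold change was 1.34 (SE 0.26, adjusted p = 0.00635), called without any single library and with the background removed (1.14), but 0.18 after the GC and length correction (adjusted p = 0.459).

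TIMP2, the inhibitor that also bridges MMP14 and pro-MMP2 (GRCh37 chr17:76849059-76921469, minus strand), was at 197, 188 and 157 CPM across BCSC, against 206, 150 and 116 CPM for non-BCSC. The groups overlapped, with the highest value of all in non-BCSC replicate 1. TIMP3, the inhibitor that binds the matrix and also inhibits ADAM17 (GRCh37 chr22:33197691-33259028, plus strand), was at 108, 83.3 and 92.0 CPM across BCSC, against 102, 84.5 and 91.1 CPM for non-BCSC. Its values in the 2 groups were interleaved. The log2 fold changes were 0.20 (SE 0.19, adjusted p = 0.448) for TIMP2 and 0.034 (SE 0.14, adjusted p = 0.872) for TIMP3. The sign of both depended on the treatment of the counts: after the GC and length correction they were -0.68 (adjusted p = 0.00598) and -0.48 (adjusted p = 0.0258), and with the background removed -0.015 and -0.14.

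ADAM17 (GRCh37 chr2:9628615-9696861, minus strand) was the only tested member below 0. It was at 148, 157 and 171 CPM across BCSC, against 193, 197 and 186 CPM for non-BCSC, so that every BCSC library lay under the lowest non-BCSC library. The difference was small, at -0.28 (SE 0.10, adjusted p = 0.0636). Its adjusted p was 0.0106 with the background removed (-0.50) and 0.0036 in DESeq2 (-0.37), short of the minimum fold in both, and the sign turned after the GC and length correction (0.10, adjusted p = 0.491). ADAM17 overlaps IAH1 on the opposite strand, which had 2607 counts, 17.7% of the number for ADAM17. Strand was kept in the library, but whether it was used in counting is not stated, so reads of such pairs may not be separated.

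**Figure D2:**
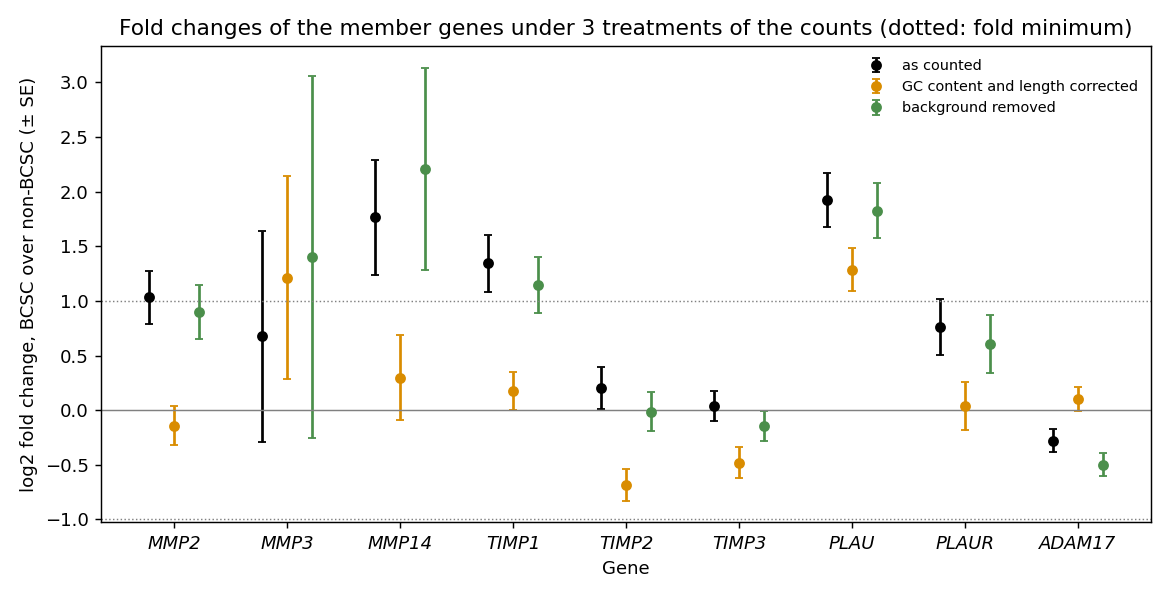
Log2 fold change of BCSC over non-BCSC with its SE for the 9 tested genes (vertical axis), as counted (black), corrected for GC content and length (orange) and with the olfactory background removed (green), with dotted lines at the minimum fold. PLAU stays above 1 in all 3, whereas MMP2, MMP14, TIMP1 and PLAUR move to between -0.14 and 0.30 after the correction.

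The correction lowered the value of 7 of the 9 tested members and raised that of MMP3 and ADAM17. GC content was highest in MMP14 (58.9%), TIMP1 (57.5%), MMP2 (55.7%) and PLAUR (55.5%), followed by TIMP2 (53.2%), PLAU (52.9%) and TIMP3 (48.7%), and lowest in MMP3 (44.9%), MMP1 (42.7%) and ADAM17 (41.9%). After the correction the median log2 fold change over all genes was -0.16, against -0.05 without it. The cause of the relation with GC content was not tested.

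To compare the members with each other, levels were divided by transcript length, weighted by counts. In BCSC the order of CPM per kb was TIMP1 (73.7 ± 21.3), TIMP2 (50.2 ± 5.82), ADAM17 (37.1 ± 2.81), PLAU (21.5 ± 3.23), TIMP3 (20.6 ± 2.75), PLAUR (18.1 ± 3.76), MMP2 (13.3 ± 3.04), MMP14 (4.79 ± 1.63), MMP3 (1.32 ± 0.527) and MMP1 (0.549 ± 0.274). The ranges of TIMP1 and TIMP2, of neighbours in the run from PLAU over TIMP3 and PLAUR to MMP2, and of MMP3 and MMP1 overlapped. In non-BCSC ADAM17 (45.0 ± 1.30) and TIMP2 (43.7 ± 12.6) came first, followed by TIMP1 (29.0 ± 6.70), TIMP3 (20.1 ± 1.87), PLAUR (10.7 ± 1.66), MMP2 (6.49 ± 1.45), PLAU (5.66 ± 1.63), MMP14 (1.40 ± 1.09), MMP3 (0.831 ± 0.945) and MMP1 (0.192 ± 0.140). There the first 3 each overlapped the next in the order, as did MMP2 and PLAU, MMP14 and MMP3, and MMP3 and MMP1. PLAUR lay above PLAU in non-BCSC with no overlap, whereas in BCSC the ranges of the 2 genes overlapped, with the higher mean for PLAU. The MMPs MMP14, MMP3 and MMP1 were the lowest in both.

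The 4 MMPs together came to 66.9 ± 16.4 CPM in BCSC and 29.5 ± 6.39 CPM in non-BCSC, and the 3 TIMPs to 332 ± 44.2 and 272 ± 56.3 CPM. The summed TIMP level was thus above the summed MMP level in both groups. Between MMP14 and its adaptor TIMP2, the ratio of counts was 0.122, 0.0826 and 0.0804 across BCSC, against 0.0470, 0.0159 and 0.0281 for non-BCSC. The groups did not overlap, with a difference of 1.76 on the log2 scale (exact permutation test, two-sided, p = 0.1, the smallest possible). The ratio of MMP1 to TIMP1 differed by 0.32 (exact permutation p = 0.8), and it changed sign to -0.27 without non-BCSC replicate 1. Adjusted over the 3 ratios, none could pass a threshold of 0.05.

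The deposited file holds counts per transcript, and within 3 members nearly all counts moved to another transcript in some libraries. Only for MMP14 did this follow the group. MMP14-201, the full-length coding transcript, took 479, 232 and 204 counts across BCSC but 0 in every non-BCSC library. MMP14-208, annotated as a target of nonsense-mediated decay, had 0 counts in every BCSC library and 113, 26 and 28 in non-BCSC. The counts of this pair therefore fell on either transcript by group, with no library holding both. In non-BCSC the MMP14 gene sum per kb was 1.45 times the olfactory level, so the lower of these counts were close to that background. The adjusted p-values over all 45898 transcripts tested were 0.0512 and 0.0781, so neither was called (both were called in DESeq2, at 1.61e-11 and 2.59e-06). By counting error alone, a count of 0 allows up to 3 counts, 0.257 to 0.286 CPM in the non-BCSC libraries on the scale of the transcripts. That limit does not cover how reads from the 3701 nt shared by the pair were assigned, which was not tested.

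These 2 transcripts share 3701 nt and differ by a single exon of 151 nt, exon 5 of MMP14-208, which carries a stop codon. Its part up to that stop (GRCh37 chr14:23312231-23312295, plus strand) is shown because the 2 transcripts are told apart only by this exon, the exon junctions it makes and the junction in MMP14-201 that skips it. Capitals mark the stop codon.
MMP14-208 exon 5 to its stop: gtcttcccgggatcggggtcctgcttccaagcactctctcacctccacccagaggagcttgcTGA

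PLAU was divided in a similar way, but by library and not by group. PLAU-201 took 1192, 713 and 729 counts across BCSC, then 216 for non-BCSC replicate 1, but 0 in non-BCSC replicates 2 and 3. PLAU-202 took 122 and 121 counts in those 2 libraries and 11, 40, 1 and 0 in the others. The gene sum differed between the groups whichever transcript was named. PLAU-201 has a coding exon of 28 nt that PLAU-202 lacks (exon 3, GRCh37 chr10:75671799-75671826, plus strand), and its annotated start codon lies further upstream, at chr10:75671314-75671316 against chr10:75671650-75671652.
PLAU-201 exon 3: ggcagcaatgaacttcatcaagttccat

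MMP2 counts were on MMP2-201 in 5 libraries, at 96% or more, while non-BCSC replicate 1 had all 318 of its counts on MMP2-208, which is also coding. For PLAUR, the main transcript PLAUR-203 took 437, 282 and 225 counts across BCSC, against 125, 72 and 69 for non-BCSC. PLAUR-202, with another last exon, had 91, 52 and 57 counts and 0, 79 and 43. TIMP1-201 held 97.9% of the TIMP1 counts in BCSC and 88.2% in non-BCSC, where TIMP1-204 took 83 counts in replicate 2. TIMP2 was split between TIMP2-201 (81.3% and 84.2%) and TIMP2-204 (17.9% and 15.5%) in similar shares. TIMP3 has a single transcript on file. ADAM17 has 28, of which ADAM17-201 held 71.2% and 74.8%, and all its protein-coding transcripts 74.1% and 80.8%. Of the 86 transcripts, 24 were tested and none was called, where 0.597% of all transcripts were called higher and 0.187% lower. Among the members 5 had an unadjusted p under 0.05, and DESeq2 called 3 higher (TIMP1-201, MMP14-201 and PLAUR-203) and 2 lower (ADAM17-226 and MMP14-208). The shares of all transcripts with such a p or with a DESeq2 call were not taken, so these counts cannot show an excess. The common biological coefficient of variation was 1.02 for transcripts and 0.453 for gene sums.

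**Figure D3:**
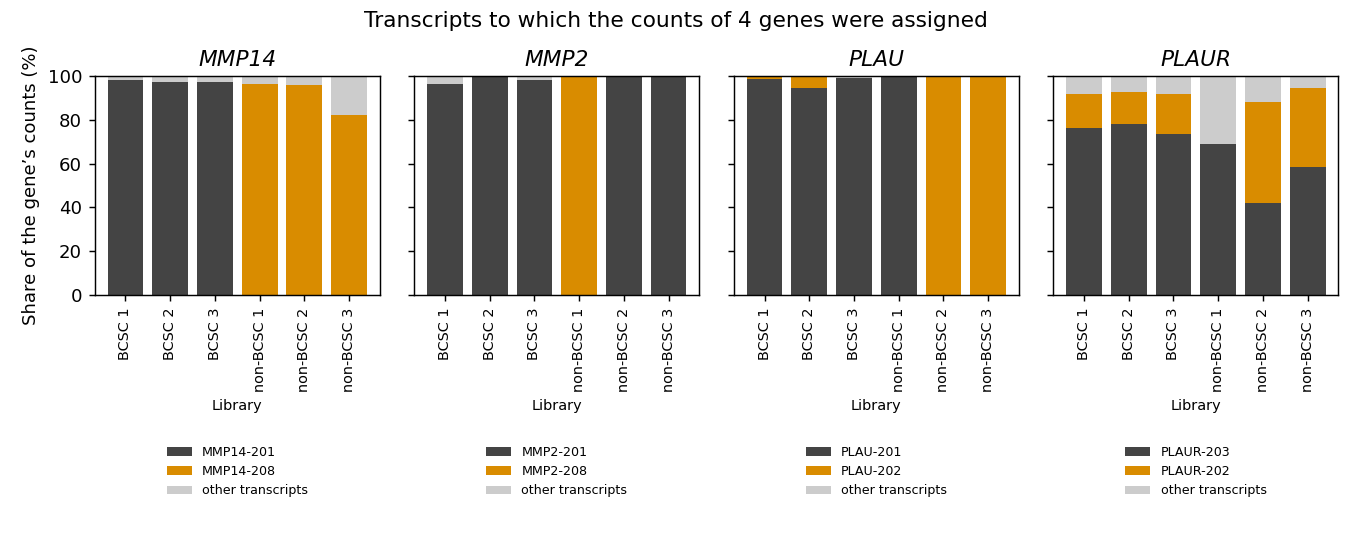
Share of a gene's counts, in percent, assigned to each transcript in each of the 6 libraries for MMP14, MMP2, PLAU and PLAUR. MMP14-201 holds nearly all counts in BCSC and none in non-BCSC, where MMP14-208 takes its place. MMP2 changes transcript in non-BCSC replicate 1 and PLAU in non-BCSC replicates 2 and 3.

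Promoter windows of 250 nt before the RefSeq start (build GRCh38.p14) were at hand for 6 of the 10 members, in 7 windows. Of the 4 genes called higher, PLAU, MMP14 and TIMP1 had such a window, and these are shown because all 3 were called higher. The window of the other PLAU start is left out, since only windows with the GC box defined below were kept. The letters were found at a single place in GRCh37 and are given there, without the 25 to 28 nt next to the start that another transcript of the gene covers. Capitals mark the GC box GGGCGG or its reverse complement CCGCCC, the letters bound by SP1-family factors.
PLAU, chr10:75670640-75670861, plus strand: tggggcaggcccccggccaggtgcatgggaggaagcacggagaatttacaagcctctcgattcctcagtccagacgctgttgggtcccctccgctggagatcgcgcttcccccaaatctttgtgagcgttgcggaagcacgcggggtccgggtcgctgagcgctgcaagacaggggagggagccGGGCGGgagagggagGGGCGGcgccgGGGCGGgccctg
MMP14, chr14:23305544-23305768, plus strand: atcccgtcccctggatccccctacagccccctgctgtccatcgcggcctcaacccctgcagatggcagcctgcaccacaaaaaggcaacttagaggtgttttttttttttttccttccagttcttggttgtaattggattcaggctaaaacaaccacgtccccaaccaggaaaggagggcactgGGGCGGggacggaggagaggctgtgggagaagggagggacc
TIMP1, chrX:47441585-47441806, plus strand: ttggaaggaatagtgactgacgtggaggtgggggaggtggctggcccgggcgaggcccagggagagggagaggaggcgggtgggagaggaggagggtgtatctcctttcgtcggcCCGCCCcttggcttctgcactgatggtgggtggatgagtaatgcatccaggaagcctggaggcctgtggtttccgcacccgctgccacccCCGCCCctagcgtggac

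The GC box occurred 3 times in this PLAU window, 1 time in that of MMP14 and 2 times in that of TIMP1. It was also present 5 times in TIMP3 and 3 times in ADAM17, which were not called, and in 42.6% of all 35116 windows on either strand. It was not in the window of the other PLAU start or in that of PLAUR. The AP-1 letters TGANTCA occurred in the PLAUR window alone, as TGAGTCA at -186 from the start, and in 6.57% of all windows. TATAAA was in none of the 7 windows and in 10.7% of all. These matches describe the letters and do not show that a factor binds.

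The wider protease system was described from 6 further lists. None of the 9 tested genes among 19 other MMPs was called. Their log2 fold changes were above 0 for 3 and below 0 for 6, with a median of -1.81. Among those below 0, MMP7, MMP10 and MMP13 were close to the background in non-BCSC. They were at 1.50, 1.10 and 0.830 times the olfactory level per kb there. The membrane MMP genes MMP16 and MMP15, the 2 with the highest counts, were at 47.4 ± 6.52 and 34.2 ± 3.43 CPM (log2 fold change 0.47, adjusted p = 0.0695) and at 5.23 ± 1.33 and 1.78 ± 1.69 CPM (1.55, adjusted p = 0.281). The gelatinase MMP9 had 4 counts in BCSC replicate 2 and 0 in the other 5 libraries.

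Among 23 tested genes of 28 other ADAMs and ADAMTSs, 4 were called higher and 3 lower. ADAM19, a membrane-bound sheddase of neuregulin, had the largest rise, from 17.9 ± 5.51 to 124 ± 26.0 CPM in BCSC (log2 fold change 2.79, SE 0.25, adjusted p = 0.000225). ADAM15 rose by 1.95 on the log2 scale, and the proteoglycan-cleaving ADAMTS4 and ADAMTS9 by 1.50 and 1.29. ADAMTS20 fell by 2.17 and ADAM28 by 1.63, from levels in non-BCSC of 1.79 and 3.29 times the olfactory level per kb. The third gene called lower, ADAMTS19, was under a mean of 50 counts. ADAM10 and ADAM9, sheddases that share substrates with ADAM17, were abundant and were not called, at log2 fold changes of -0.078 and -0.019.

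Of the 10 other inhibitors and partners of metalloproteases, 3 were called higher and none lower, with a median log2 fold change of 1.11. TSPAN14, a tetraspanin that accompanies ADAM10, rose by 1.19. BSG (basigin, known as an inducer of MMPs) rose by 1.03 and FRMD8, which stabilizes the iRhom and ADAM17 complex at the cell surface, by 2.46. FRMD8 was counted 295, 200 and 184 times across BCSC, against 45, 9 and 26 for non-BCSC. TIMP4 and RECK, further MMP inhibitors, were not called, at 1.47 (adjusted p = 0.369) and -0.14 (adjusted p = 0.671).

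In plasminogen activation, 9 of 13 genes were tested, 1 was called higher and 1 lower. S100A10, a plasminogen receptor subunit, rose by 1.06 to 320 ± 43.2 CPM. Plasminogen itself (PLG) was called lower, on 3 to 49 counts per library and at 0.965 times the olfactory level per kb in non-BCSC. The tissue-type activator PLAT was not called (0.32, adjusted p = 0.153), and the protease nexin SERPINE2 had a log2 fold change of -0.47 (adjusted p = 0.0081), short of the minimum fold.

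Among 8 tested membrane serine proteases, convertases and their inhibitors, FURIN and PCSK7, convertases that can remove the propeptides of MMP14 and ADAMs, rose by 1.80 and 1.32. FURIN was at 43.3, 30.7 and 25.8 CPM across BCSC, against 9.82, 8.92 and 9.97 CPM for non-BCSC. The surface peptidase DPP4 fell by 3.25, from a level at 1.68 times the olfactory one, and PCSK6 was called lower on fewer than 50 counts on average. Of 14 tested cathepsins and cystatins, the cysteine protease inhibitor CST3 (1.98) and the lysosomal genes CTSA (1.45) and CTSD (1.21) were called higher and the cystatin CSTA lower (-1.92). CTSD was near the threshold, with an adjusted p of 0.0497.

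**Figure D4:**
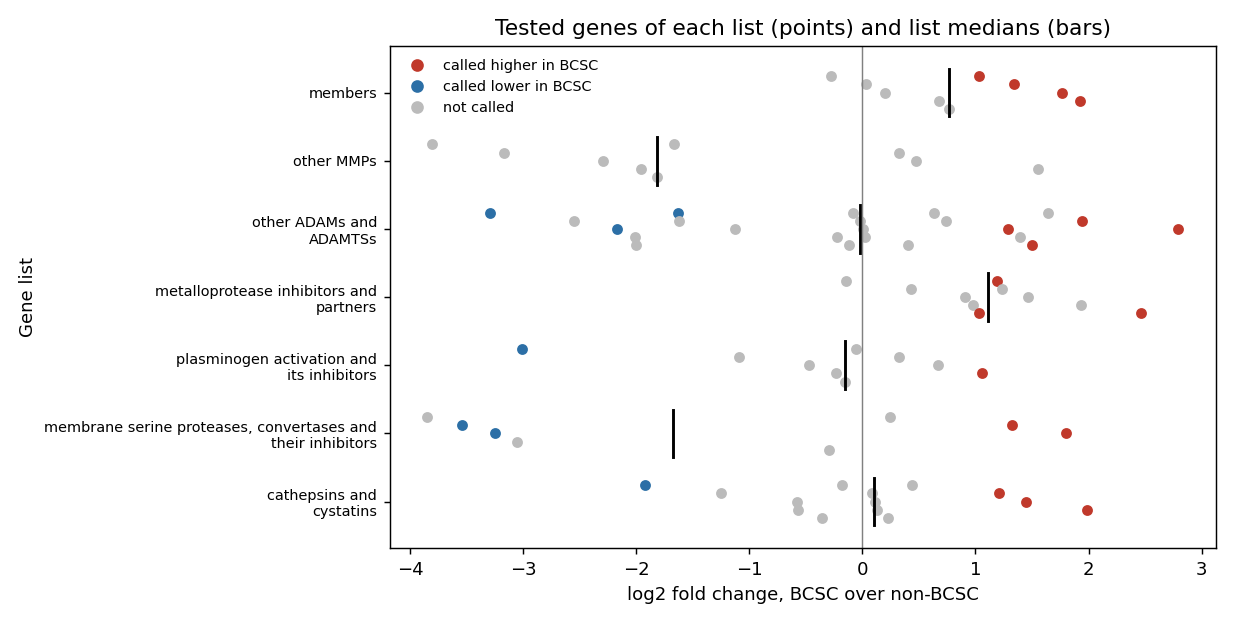
Log2 fold change of BCSC over non-BCSC (horizontal axis) for each tested gene of the 7 lists (points), with genes called higher in red, called lower in blue and the others in grey, and a bar at each list's median. The medians of the 10 followed genes (0.76) and of the inhibitors and partners (1.11) lie above 0. That of the other MMPs lies at -1.81 with no gene called. It is the value of MMP10, which was near the olfactory level per kb in non-BCSC.

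Over the 6 lists together, 13 of 73 tested genes (17.8%) were called higher and 7 (9.59%) lower, beside 8.85% and 11.3% of all genes tested and 13.7% and 6.45% of those with a mean count of 50 or more. The lists too were chosen with earlier results of these data known, so these shares cannot show an excess. The calls also depended on the treatment of the counts. After the GC and length correction 3 genes of the lists were called higher and 11 lower, and with the background removed 12 higher and 4 lower. Of the 13 genes called higher, only ADAM19 was still called after the correction, at 1.51 (adjusted p = 0.00198), and the values of FURIN (-0.13), BSG (-0.34) and CTSD (-0.44) changed sign. With the background removed 10 of the 13 were still called, the exceptions being BSG (0.81), S100A10 (0.83) and CTSD (1.05, adjusted p = 0.0968). Of the 7 called lower, CSTA lost its call under the correction (-0.86, adjusted p = 0.211), and ADAMTS20, PLG and PCSK6 lost theirs with the background removed. Of these 7 genes, CSTA was at 18.4 times the olfactory level per kb in non-BCSC and the others at 0.965 to 3.29 times, and the part of that background in their fall was tested only by its removal.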

How the data were processed

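LncRNA sequencing of total RNA was analysed in 6 libraries, 3 labelled BCSC and 3 labelled non-BCSC. Per the labels, cDNA was primed with random oligonucleotides and the dUTP-marked strand was removed. The study's RNA-seq methods describe adapter trimming and HISAT2 alignment to hg19, whereas the submitters' processing notes name hg38, HISAT2, featureCounts and DESeq2 without their roles. The step that assigned reads to transcripts is not given in the sources used here. The authors deposited 1 table of estimated counts, whole numbers for each transcript with no normalization.

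Of 252618 transcripts, 249787 (98.9%) matched GENCODE on GRCh37 by identifier, 2827 did not, and 4 with assembler-made names were left out. Counts were summed per gene. The sums, and the transcripts themselves, went into edgeR 4.0.16 under R 4.3.3 (TMM, filterByExpr, robust quasi-likelihood test on group alone), with Benjamini-Hochberg adjustment over all features tested. Calls needed both an adjusted p below 0.05 and a log2 difference above 1 in size. Fold changes are BCSC over non-BCSC. The SE given with them was worked back from the test, as the size of the log2 fold change over the square root of the quasi-likelihood F statistic. The script was tested on simulated data.

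The GC and length correction used a loess per library (span 0.3). The background removed was each library's olfactory receptor count per kb times the gene's mean transcript length, not weighted by counts. Levels given as multiples of the olfactory level used the length weighted by counts. These lengths can differ, so the removal need not take off the level that those multiples refer to. DESeq2 1.42.0 was an alternative. Replicate pairs differed by more than counting error (chi-square per degree of freedom 15.2 to 42.1). A count of 0 allows 3 counts, 0.148 to 0.288 CPM for gene sums, which covers counting error only since reads carry no molecular identifiers.

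All 10 members are named, and any gene overlapping them that bears on a value. Of each wider list, up to 4 genes per direction were named by smallest p among called genes whose mean count was 50 or more and whose groups did not overlap, or else the 2 with the highest mean CPM. The remaining names were picked with their values in view: MMP7, MMP9, MMP10, MMP13, ADAM9, ADAM10, ADAMTS19, TIMP4, RECK, PLG, PLAT, SERPINE2 and PCSK6. The members and lists were chosen with earlier results of these data known. Some genes of the lists, and a ratio with one of them, are not reported here.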

Additional observations from a re-analysis of the deposited data

How the results depend on the processing

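The 4 members called higher became 1 under the GC and length correction (PLAU, also with the replicate block) and 2 with the background removed, and ranged from 2 to 4 when a library was left out, with 2 without BCSC replicate 1 and 2 without non-BCSC replicate 3. Over all genes, 1810 of 20442 were called higher in the main fit, 1412 of 20442 under the correction and 1789 of 16514 with the background removed. They were 959 of 23650 without BCSC replicate 1 and 1514 of 22473 without non-BCSC replicate 3. No member was called lower under any alternative. In the 6 wider lists, the number of genes called higher was 13 in the main fit and 3 under the correction. Of those 3, ADAM19 alone was among the 13. The number was 4 with the block added and 7 with protein-coding transcripts only, and ranged from 11 to 14 with a library left out. The 7 lower became 13 in DESeq2, 12 with no filter, 11 under the correction, 4 with the background removed and 4 with protein-coding transcripts only, and ranged from 3 (without BCSC replicate 2) to 10, with 4 without non-BCSC replicate 3. DESeq2 called 3 member transcripts higher and 2 lower, against 0 and 0 in the main fit, and its share over all transcripts was not taken.

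Signs turned for MMP2 (-0.14 under the correction and -0.14 with the block added), TIMP2 (-0.68, -0.67 with the block, and -0.015 with the background removed) and ADAM17 (0.10 in both corrected fits). For TIMP3 the sign turned to -0.48 under the correction, -0.49 with the block added, -0.056 with RLE size factors, -0.056 in DESeq2, -0.12 where each library needed 10 counts, -0.011 after thinning to the smallest library, -0.14 with the background removed, -0.12 with protein-coding transcripts only and -0.069 without BCSC replicate 1, the lowest of a range up to 0.16 with a library left out. The ratio of MMP1 to TIMP1 turned to -0.27 without non-BCSC replicate 1 (up to 1.08 with another library left out). The causes were not tested.

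Over all genes, 1810 were called higher and 2307 lower. The share of calls that were higher was 33.7% in DESeq2 (1783 and 3512), 62.3% with the background removed (1789 and 1081), 55.3% with protein-coding transcripts only (909 and 735) and 54.0% where each library needed 10 counts (1383 and 1177). Under the GC and length correction it was 37.1% (1412 and 2395), and 39.8% with the block added (1402 and 2121).

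With the replicate number as a block, 4 members were higher and 0 lower. Deviations of same-numbered libraries correlated at 0.261, 0.0755 and 0.254, and each library correlated best with its own number. The labels do not say whether the numbers mark pairs. This was not settled, and the main fit left the block out. MMP1, at 2 to 33 counts per library, was under the expression filter in the main fit. It passed the filter in 4 fits with a library left out and was called in none of them. MMP14 kept its call after thinning to the smallest library (1.76). With protein-coding transcripts only, MMP14 had 0 counts in all non-BCSC libraries, so its fitted value there gives no fold.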
